A study of Homo sapiens with 17 samples.

Results

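Ribosome footprints were compared between HEK293 cells that had received active Cas9 and cells that had received dCas9, 72 h after electroporation. The comparison rests on 4 of the 17 libraries of the series, 2 for Cas9 (called e and f) and 2 for dCas9 (also e and f), chosen by library type and time point. HEK293 is an established human embryonic kidney line, and Cas9 is the bacterial nuclease that a guide RNA directs to a matching DNA sequence, where it makes a double-strand break. dCas9 binds the same sequence and does not cut. In both groups the protein was delivered as a ribonucleoprotein with sgIntron, a guide against intron 12 of JAK2, at 300 pmol protein and 300 pmol guide in the labelled protocol. The methods also describe a smaller scale, and which of the scales these plates used is not settled by the sources used here. The study made each replicate by pooling 4 small-scale electroporations into 1 plate, so that a library comes from a mixed population and no clone was isolated. There was no untreated group, so each value below is a difference between a cut and an uncut population that had both been electroporated and given a guide. The remaining libraries of the series are mRNA at 72 h (2 per nuclease, called a and b) and footprints and mRNA at 36 h, and they are used here only beside the footprint values.

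Ribosome profiling sequences the short pieces of mRNA that a translating ribosome shields from RNase, and a gene's footprint count rises with the amount of its mRNA and with the number of ribosomes on each copy. Cells meet a double-strand break with p53 signaling, repair factors and cell cycle arrest. Protein synthesis can also be lowered under stress, when phosphorylation of eIF2α spares a small group of mRNAs, ATF4 among them, that carry upstream reading frames. The comparison asks which genes gained or lost ribosomes 3 days after a single cut.

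JAK2, a tyrosine kinase of cytokine signaling and the gene whose intron is cut, had few footprints. The Cas9 libraries held 10 and 18 JAK2 footprints and the dCas9 libraries 23 and 19, or 3.01 to 3.14 CPM for Cas9 and 2.14 to 3.41 CPM for dCas9. CPM is the usual scaling of a count by the total of its library. The groups overlapped, and at a mean count below 20 JAK2 was not tested. Since the cut lies in an intron, these counts check neither editing nor the labels. In the mRNA libraries JAK2 had 258 and 255 counts for Cas9 and 231 and 472 for dCas9.

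On 1 transcript per gene the Cas9 libraries totaled 3184984 and 5975627 footprints and the dCas9 libraries 6735682 and 8868872, so both Cas9 libraries were shallower than both dCas9 libraries. Of 19456 genes listed, 15142 had a footprint and 10952 had a mean count of at least 20 and were tested, and these held over 99.6% of the counts of each library. The neurofilament genes NEFL and INA, which HEK293 cells express, had 120 to 427 and 136 to 389 counts in each library, whereas PAX2 had 2 to 12. Of the other HEK293 markers listed, NEFM had 37 to 93 counts, LHX1 had 12 to 38 and the neurofilament gene NEFH had 0 to 3. Of 10 markers of K562 and other blood cells, 6 were at 0 in every library and the sum over the list was 1.34 to 3.77 CPM. Markers of fibroblasts and hepatocytes summed to 19.7 to 29.5 CPM, nearly all of it COL1A1, and ALB, FGB and TTR were at 0.

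The 2 groups were close. The median absolute log2 fold change between Cas9 and dCas9 was 0.11, with a median SE of 0.17, and 95.1% of the genes lay within 0.5 log2 of 0. Libraries of 1 nuclease differed from each other by a median of 0.19 log2 for Cas9 and 0.13 log2 for dCas9, while Cas9 and dCas9 libraries, taken 1 against 1, differed by 0.14 to 0.17 log2. The differences between the nucleases thus lay above that of the dCas9 replicates and below that of the Cas9 replicates, which include the shallowest library. At a false discovery rate of 0.1 in edgeR's quasi-likelihood test, the threshold used throughout, footprints rose for 3 genes (0.0274% of those tested) and fell for 1 (0.00913%). The 3 were MT-ATP6, MT-ND5 and MT-CO2, all encoded in mitochondrial DNA, and the gene that fell was SAMD10. None of the 4 was called when footprint and mRNA libraries were fitted together. By the plain order of the 4 libraries, both Cas9 libraries lay above both dCas9 libraries for 1732 genes (15.8%) and below them for 1739 (15.9%). An exact permutation of 2 against 2 libraries cannot give a two-sided p below 0.333, so single genes rest on the spread that edgeR shares across genes. That spread narrowed with depth, from a median SE of 0.33 log2 at mean counts of 20 to under 100 to 0.078 log2 at 1000 and over.

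**Figure D1:**
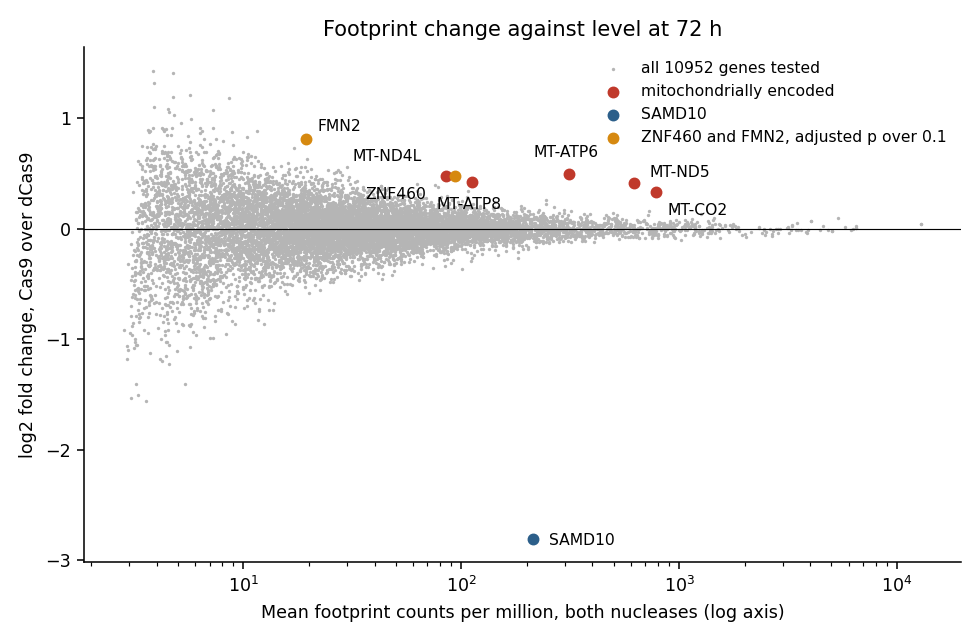
log2 fold change of footprints (Cas9 over dCas9, 2 libraries each) for the 10952 genes tested, against the mean footprint level in CPM on a log axis. The 5 mitochondrially encoded genes lie at 0.33 to 0.49 and SAMD10 lies at -2.81.

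The mitochondrial genome encodes 13 proteins, all of them subunits of the respiratory chain or of ATP synthase, and they are made inside the organelle by mitochondrial ribosomes with their own genetic code. Mitochondrial ribosomes also shield mRNA from RNase, so a footprint library holds their footprints along with those of cytosolic ribosomes. In the 72 h files 5 of the 13 genes carry a coding length and counts, and these are the same 5 for which GENCODE 44 records a stop codon. The other 8, among them MT-CO1 and MT-CYB, are listed without a coding length at 0 and are not analysed here. The first 30 bases of the 5 reading frames follow, read from chromosome M of GRCh38 (plus strand) because the results turn on these genes, with the start codon in capitals. The coding sequences lie at chrM:7586-8269 (MT-CO2), chrM:8366-8572 (MT-ATP8), chrM:8527-9207 (MT-ATP6), chrM:10470-10766 (MT-ND4L) and chrM:12337-14148 (MT-ND5), and none is interrupted by an intron.
MT-CO2: ATGgcacatgcagcgcaagtaggtctacaa
MT-ATP8: ATGccccaactaaatactaccgtatggccc
MT-ATP6: ATGaacgaaaatctgttcgcttcattcatt
MT-ND4L: ATGcccctcatttacataaatattatacta
MT-ND5: ATAaccatgcacactactataaccacccta
MT-ND5 begins with ATA, which mitochondria read as methionine. MT-ATP8 and MT-ATP6 lie on 1 mRNA and their frames overlap by 46 bases (chrM:8527-8572), which is 22.2% of MT-ATP8, so footprints there cannot be told apart and the counts of these 2 genes are not independent. The stretch is shown around the start codon of MT-ATP6 and up to the stop codon of MT-ATP8, with each codon in capitals.
MT-ATP6 start: ccctgagaaccaaaATGaacgaaaatctgt
MT-ATP8 end: tcgcttcattcattgcccccacaatccTAG

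MT-ATP6, the proton channel subunit of ATP synthase, had 367 and 362 footprint CPM in the Cas9 libraries and 279 and 240 in the dCas9 libraries. Both Cas9 libraries lay above both dCas9 libraries, and the rise was 1.41-fold (log2 0.49, SE 0.080, adjusted p = 0.00296). MT-ND5, a proton-pumping subunit of complex I, had 714 and 708 CPM with Cas9 and 561 and 508 with dCas9, a 1.33-fold rise (log2 0.41, SE 0.069, adjusted p = 0.00296). MT-CO2, the subunit of cytochrome oxidase that takes electrons from cytochrome c, had 851 and 900 CPM with Cas9 and 729 and 665 with dCas9. Its groups did not overlap either, at a 1.26-fold rise (log2 0.33, SE 0.067, adjusted p = 0.0522). The remaining pair had log2 fold changes of the same size on fewer counts and missed the threshold. MT-ND4L, a small membrane subunit of complex I, had 97.8 and 99.8 CPM with Cas9 and 74.4 and 68.3 with dCas9 (log2 0.47, SE 0.11, adjusted p = 0.141). MT-ATP8, the smallest of the ATP synthase subunits made in the organelle, had 135 and 122 CPM with Cas9 and 97.9 and 93.0 with dCas9 (log2 0.42, SE 0.098, adjusted p = 0.199).

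Added together, the 5 genes took 0.217% of the footprints in each Cas9 library and 0.174% and 0.156% in the dCas9 libraries. Both Cas9 libraries were also the shallower ones, so nuclease and depth cannot be told apart for this share. The makeup of the 5 genes was alike in all 4 libraries. MT-CO2 gave 39.3% to 42.2% of the sum, MT-ND5 32.2% to 33.0%, MT-ATP6 15.3% to 17.0%, MT-ATP8 5.58% to 6.23% and MT-ND4L 4.27% to 4.55%. Per 100 codons, which allows genes to be compared, MT-CO2 stood highest at 421 CPM with Cas9 and 335 with dCas9, followed by MT-ATP8 at 262 and 195 and MT-ATP6 at 176 and 125. MT-ND4L (125 and 90.3) and MT-ND5 (122 and 91.5) were at nearly the same level, and their order turned between the nucleases. The 4 single pairs of libraries gave medians over the 5 genes of 0.34 to 0.52 log2, against -0.0023 to 0.0041 over all genes. Without the dCas9 library f, which had the lowest levels, MT-ATP6 stood at 0.39, MT-ND5 at 0.34 and MT-CO2 at 0.27, with adjusted p-values of 1.00 for each. Without the dCas9 library e, MT-CO2 stood at 0.40 with an adjusted p of 0.15. These are fits with a lone dCas9 library, whose spread is taken from Cas9. In bulk libraries a change in a few cells and a smaller change in all cells cannot be told apart.

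The mRNA of the same genes was not higher with Cas9. MT-CO2 mRNA was at 591 and 823 CPM with Cas9 and at 1281 and 1459 with dCas9, and it fell by 0.95 on the log2 scale (adjusted p = 0.000797). MT-ATP6 mRNA fell by 0.76 (adjusted p = 0.0125). The mRNA of MT-ND5, MT-ND4L and MT-ATP8 had log2 fold changes of -0.16, -0.55 and -0.24, none of which passed the threshold. As a share of the mRNA library the 5 genes took 0.0996% and 0.137% with Cas9 and 0.186% and 0.225% with dCas9, the opposite order to the footprints. The footprint and mRNA libraries carry different replicate letters, and no label ties a footprint library to an mRNA library of the same plate. At 36 h none of the 5 passed the threshold in footprints, with log2 fold changes from -0.89 for MT-ATP8 to -0.019 for MT-CO2. Their 36 h libraries overlapped for MT-CO2 (235 and 150 CPM with Cas9, 145 and 267 with dCas9). The 5 genes together took 0.047% and 0.0348% of the 36 h footprints in Cas9 a and c. In dCas9 d and e they took 0.0338% and 0.0637%. In each group the shallower 36 h library had the larger share, and the part of depth was not tested.

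**Figure D2:**
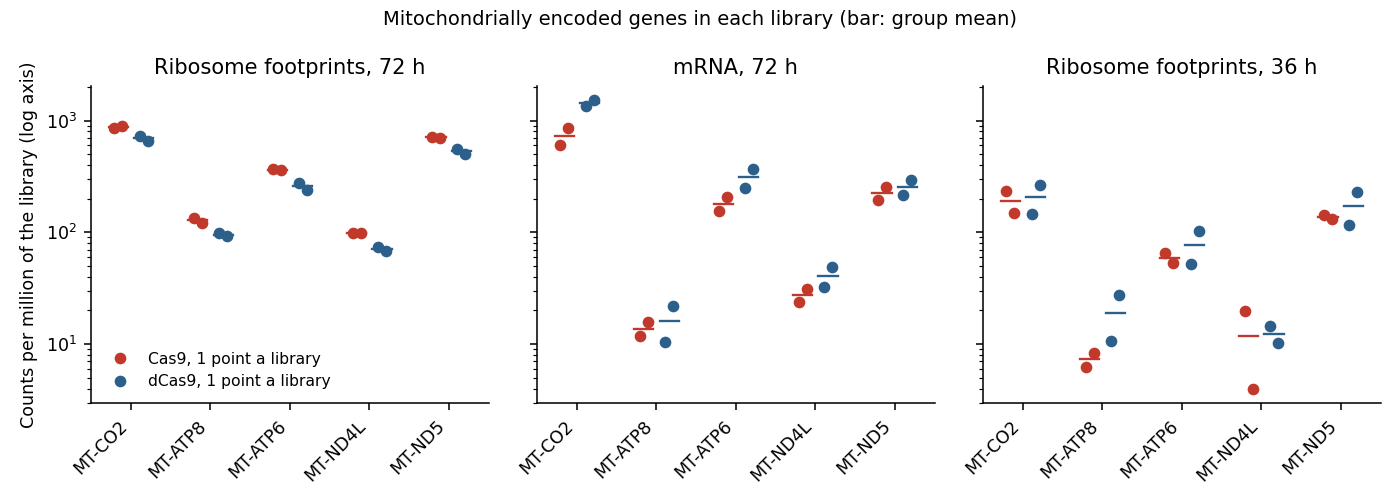
CPM of each library without TMM scaling, on a log axis, for the 5 mitochondrially encoded genes counted at 72 h. Points are libraries and bars are group means of Cas9 (red) and dCas9 (blue). In footprints at 72 h the Cas9 points lie above the dCas9 points for each gene, whereas MT-CO2 and MT-ATP6 mRNA lies below and footprints at 36 h show no common order.

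None of 80 nuclear genes for respiratory chain and ATP synthase subunits passed the threshold. Single genes named from this and the later lists were mostly those with the smallest unadjusted p of their list, not typical members. In 14 (17.5%) both Cas9 libraries were higher and in 14 (17.5%) both were lower, near the 15.8% and 15.9% of all genes, and the median log2 fold change was -0.0092. NDUFV2 of complex I had 102 and 95.9 CPM with Cas9 and 76.6 and 87.8 with dCas9 (log2 0.26, SE 0.11), and COX7A2 of cytochrome oxidase had a log2 fold change of 0.21 (SE 0.086). NDUFA11, a complex I subunit, had one of -0.16 (SE 0.083). Of 78 genes for proteins of the mitochondrial ribosome, 15 (19.2%) were higher and 8 (10.3%) lower without overlap, with a median of 0.031 and no call. MRPS25 of the small subunit was at 41.1 and 43.3 CPM with Cas9 and 34.0 and 32.7 with dCas9 (log2 0.35, SE 0.14).

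SAMD10, a gene for a protein with a sterile alpha motif (chr20:63974116-63980008 of GRCh38, minus strand), was the only gene whose footprints fell past the threshold. The Cas9 libraries held 178 and 309 SAMD10 footprints, or 55.8 and 52.2 CPM, and the dCas9 libraries 838 and 5482, or 124 and 622 CPM. The dCas9 libraries differed from each other by more than dCas9 e differed from Cas9. The log2 fold change of SAMD10 was -2.81 (adjusted p = 9.28e-06, SE 0.33), and it was -1.21 without dCas9 library f (adjusted p = 2.75e-10, with the spread taken from the Cas9 pair and shared across genes). DESeq2, which fits the spread of each gene in another way, gave SAMD10 a log2 fold change of -2.79 with an adjusted p of 1.00. SAMD10 mRNA was low and alike in both groups, at 48 and 62 counts (1.33 and 1.80 CPM) with Cas9 and 74 and 70 counts (2.04 and 1.57 CPM) with dCas9. At 36 h the 4 footprint libraries held 0 to 11 SAMD10 footprints, too few to test.

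Among genes of at least 10 CPM that missed the threshold, those with the smallest unadjusted p and no overlap were taken next. ZNF460, a zinc finger protein, had 114 and 103 CPM with Cas9 and 76.9 and 78.6 with dCas9 (log2 0.47, SE 0.10, adjusted p = 0.119). FMN2, a formin that nucleates actin filaments, had 24.8 and 24.5 CPM with Cas9 and 13.8 and 14.2 with dCas9 (log2 0.81, SE 0.20, adjusted p = 0.458). For both genes the replicates differed by less than the groups, which the choice by smallest p and no overlap favors. MRFAP1L1 (log2 0.39), CENPM of the centromere (0.41) and DUS3L, which modifies uridines in tRNA (0.37), completed the higher side together with MT-ND4L and MT-ATP8. On the lower side stood UTP6 of the small subunit processome, at 87.5 and 88.1 CPM with Cas9 and 116 and 110 with dCas9 (log2 -0.36, SE 0.10). DICER1, which cuts microRNA precursors, had 63.3 and 67.0 CPM with Cas9 and 85.4 and 82.7 with dCas9 (log2 -0.36, SE 0.11). EFL1, the GTPase that frees new large subunits from eIF6, had 43.3 and 31.1 CPM with Cas9 and 49.3 and 50.2 with dCas9 (log2 -0.46, SE 0.15). The rest were IFI30, a lysosomal thiol reductase (-0.87), LY6E, a surface protein (-0.42), ARFGEF1, an exchange factor for ARF GTPases (-0.41), HAX1, a mitochondrial antiapoptotic protein (-0.39), TBCB, a tubulin cofactor (-0.34), and SMU1, a splicing factor (-0.27).

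RPS27A, a ribosomal protein of the small subunit that is made as a fusion with ubiquitin, had 544 and 493 footprint CPM with Cas9 and 538 and 479 with dCas9. The groups overlapped and the log2 fold change was 0.026 (95% confidence interval -0.12 to 0.18). UBB, a polyubiquitin gene, overlapped as well, with a log2 fold change of -0.0099 (interval -0.13 to 0.11). Per 100 codons UBB was at 1555 CPM with Cas9 and 1566 with dCas9, and RPS27A at 378 and 371.

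Ribosomal proteins in general stayed within narrow limits. All 33 small subunit genes were tested and none passed the threshold, with log2 fold changes from -0.15 to 0.11 and a median of 0.0095. In 5 (15.2%) the Cas9 libraries were higher without overlap and in 2 (6.06%) lower, beside 15.8% and 15.9% of all genes. The 47 large subunit genes ran from -0.067 to 0.19 with a median of 0.017, and 7 (14.9%) were higher and 3 (6.38%) lower. RPL37 had the smallest unadjusted p among them, at 1000.5 and 1020.5 CPM with Cas9 and 913 and 881 with dCas9 (log2 0.17, SE 0.063). Single members were as flat, with RPS10 at -0.033 (interval -0.17 to 0.11), RPL10A at 0.00075 (interval -0.14 to 0.14) and RPL22 at 0.074 (interval -0.099 to 0.25). Summed over the list, small subunit genes held 26418 and 27884 CPM with Cas9 and 27155 and 27004 with dCas9, and the groups overlapped. Nearly identical pseudogenes can share reads with ribosomal protein genes.

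**Figure D3:**
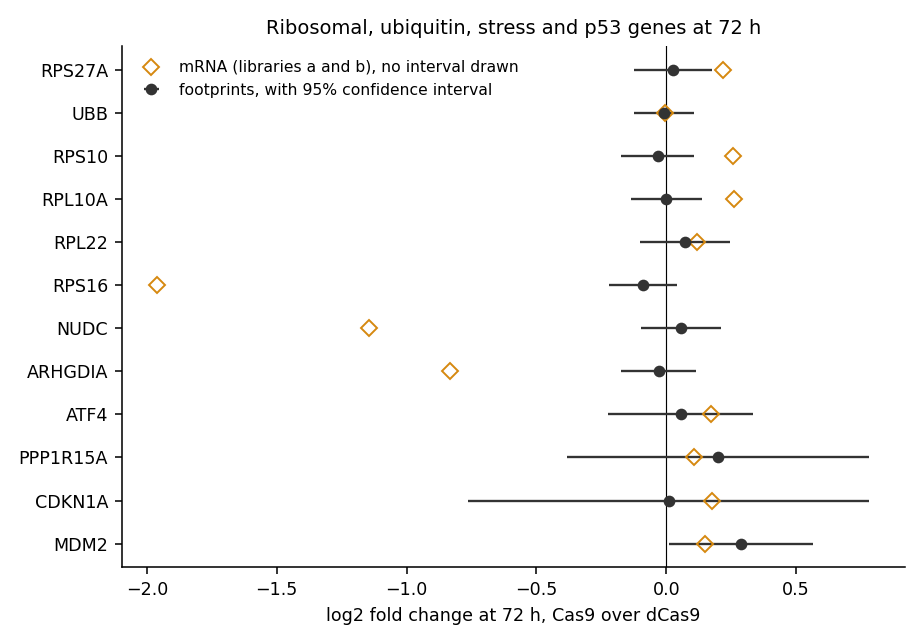
log2 fold change at 72 h (Cas9 over dCas9) of 12 ribosomal, ubiquitin, stress and p53 genes. Filled points with bars are footprints with 95% confidence intervals, and open diamonds are mRNA. Of the footprint intervals only that of MDM2 (0.0093 to 0.57, unadjusted) lies clear of 0, while RPS16, NUDC and ARHGDIA mRNA lies far below.

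The rest of the translation machinery was similar. Over all genes tested 15.8% were higher and 15.9% lower without overlap. Among 41 initiation factors 5 (12.2%) were higher and 3 (7.32%) lower without overlap (median 0.0039), and among 14 elongation and release factors 3 (21.4%) were higher and none lower (median 0.015). EIF3F, a subunit of eIF3, stood at 0.16 (SE 0.083) and the release factor ETF1 at 0.13 (SE 0.090). EIF4EBP1, an inhibitor of the cap-binding protein eIF4E, stood at -0.27 (SE 0.15). Of 23 aminoacyl-tRNA synthetases and their scaffolds 3 (13%) were higher and 2 (8.70%) lower (median 0.0022). Of 23 factors that rescue stalled ribosomes 1 (4.35%) was higher and 5 (21.7%) lower, beside 15.8% and 15.9% of all genes (median -0.024). In it PELO, which opens stalled ribosomes, had 38.2 and 37.9 CPM with Cas9 and 46.6 and 49.5 with dCas9 (log2 -0.34, SE 0.14), and LTN1, the ligase that marks stalled nascent chains, had a log2 fold change of -0.28 (SE 0.12). GIGYF1, which represses mRNAs of collided ribosomes, stood on the other side at 36.7 and 34.5 CPM against 25.7 and 25.7 (log2 0.46, SE 0.16). Of 49 ribosome biogenesis factors 2 (4.08%) were higher and 7 (14.3%) lower (median -0.0083), with PNO1 of the small subunit precursor at -0.40 (SE 0.14). No gene of these lists passed the threshold.

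Genes of the integrated stress response were tested next. ATF4, its central transcription factor, had 47.0 and 44.1 footprint CPM with Cas9 and 47.4 and 40.2 with dCas9, which overlap (log2 0.056, interval -0.22 to 0.33). PPP1R15A, the phosphatase subunit that reverses the response, had 37 to 94 counts in each library and a log2 fold change of 0.20 with a wide interval (-0.38 to 0.78). ATF5 had 7 and 35 footprints with Cas9 and 14 and 15 with dCas9, and DDIT3, which encodes CHOP, had 4 and 4 with Cas9 and 8 and 12 with dCas9. Neither was tested at these counts. Of the 72 targets listed by the study 60 matched a gene of the files and 32 were deep enough to test, with a median level of 1.69 CPM per 100 codons against 5.98 over all genes. None passed the threshold. In 5 (15.6%) both Cas9 libraries were higher and in 2 (6.25%) both were lower, beside 15.8% and 15.9% of all genes. Of the 32 targets 25 (78.1%) lay above 0, beside 50.5% of all genes, and the list was not tested as a set. Its median was 0.16, between 0.064 and 0.14 in the single pairs of libraries and between 0.081 and 0.17 under the alternatives. PTP4A1, a phosphatase, had 76 and 148 counts with Cas9 and 130 and 148 with dCas9, which did not overlap once scaled for depth (log2 0.45, SE 0.19), and ZSCAN5A, a zinc finger gene, stood at -0.97 (SE 0.38). Of 8 mRNAs with upstream reading frames that were tested 2 (25%) were higher without overlap, EPRS1 and PPP1R15B (the latter named after its values were seen). The list ran from 0.015 to 0.20, so all 8 lay above 0, beside 50.5% of all genes. It shares genes with the targets listed by the study, SLC35A4 and PPP1R15A among them, so the values of these lists are not independent. Transcriptional targets of ATF4 (23 tested) gave 4 (17.4%) higher and 3 (13%) lower with a median of 0.030. ASNS, which makes asparagine, was at 107 and 99.1 CPM with Cas9 and 96.2 and 93.3 with dCas9 (log2 0.11, SE 0.10).

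**Figure D4:**
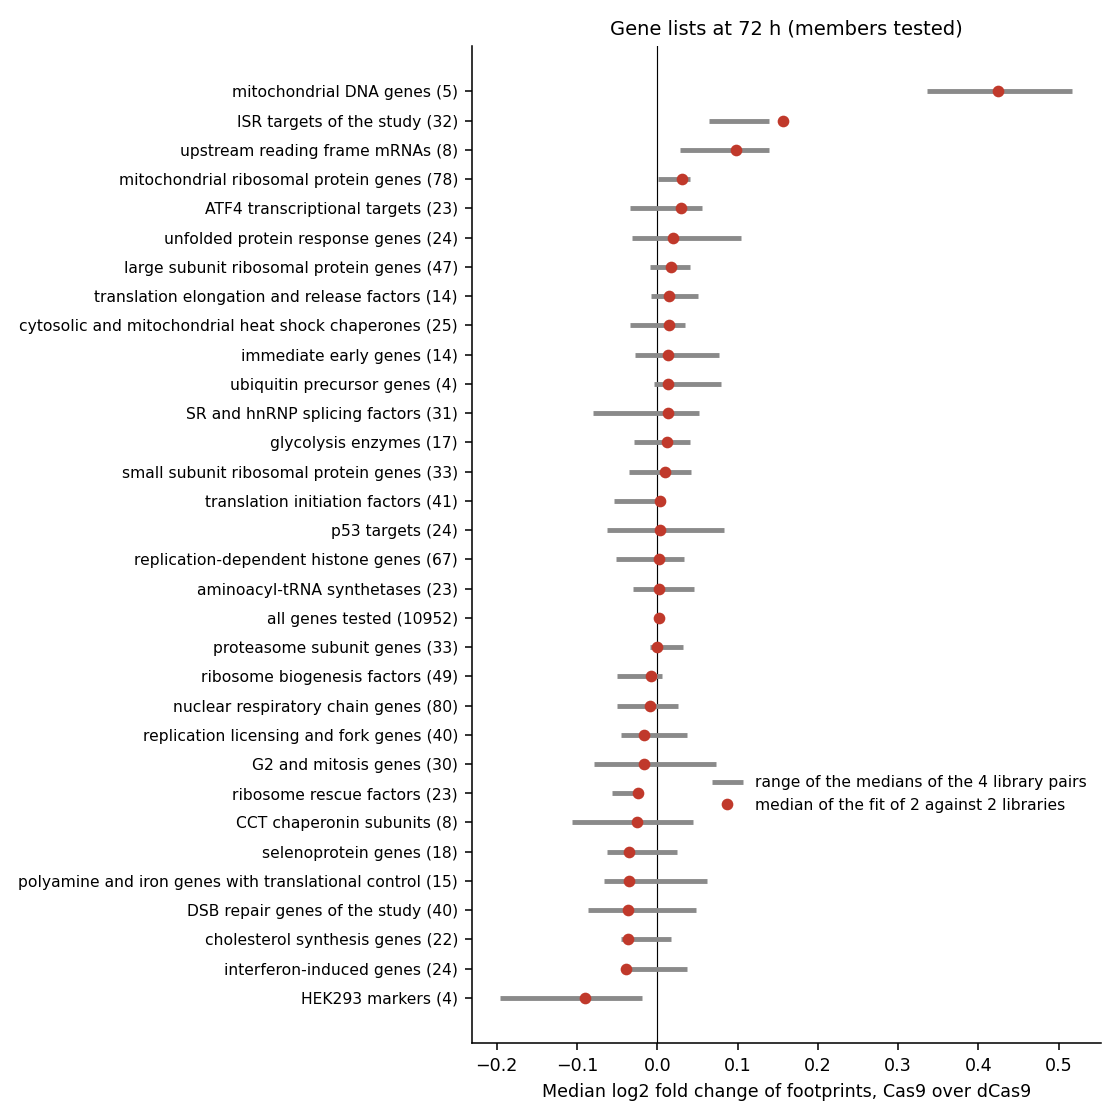
Median log2 fold change of footprints (Cas9 over dCas9) of each gene list with at least 4 genes tested, with the number tested in parentheses. Red points are medians from the fit of 2 against 2 libraries and gray bars the range of the medians of the 4 single library pairs. The mitochondrially encoded genes lie at 0.42, and the bars of most other lists span 0. Those of the integrated stress response targets, the upstream reading frame mRNAs and, narrowly, the mitochondrial ribosomal protein genes lie above 0. Those of the ribosome rescue factors and the HEK293 markers lie below 0.

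Of 24 targets of p53 tested, 5 (20.8%) were higher and 4 (16.7%) lower without overlap, beside 15.8% and 15.9% of all genes. The median was 0.0031 and none passed the threshold. HEK293 cells carry adenoviral proteins that bind p53. MDM2, the ligase that p53 induces and that degrades it, had 53.9 and 47.2 CPM with Cas9 and 44.3 and 38.1 with dCas9 (log2 0.29, SE 0.14). GADD45A, a stress sensor, had 21.6 and 19.6 CPM against 15.2 and 14.3 (log2 0.48, SE 0.21). In the other direction RRM2B, a ribonucleotide reductase subunit, had 17.6 and 14.2 CPM against 22.1 and 22.9 (log2 -0.53, SE 0.21). CDKN1A, which encodes the cell cycle inhibitor p21, had 20 to 54 counts in each library and groups that overlapped (log2 0.0090, interval -0.76 to 0.78).

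Of 40 genes of double-strand break repair 2 (5.00%) were higher and 7 (17.5%) lower without overlap, beside 15.8% and 15.9% of all genes. Their median was -0.037. GEN1, which resolves recombination junctions, had 16.9 and 15.6 CPM with Cas9 against 23.5 and 20.2 (log2 -0.43, SE 0.21). XRCC6, the Ku70 subunit that binds broken ends, was at 922 and 930 against 985 and 976, which is a small difference without overlap (log2 -0.082, SE 0.062). Neither passed the threshold. The median of the list moved to 0.037 without the Cas9 library f, so its sign rests on that library. Genes of G2 and mitosis (30 tested, median -0.017) and of replication (40 tested, median -0.017) were as flat, with shares without overlap of 13.3% and 12.5% higher and 20% and 15% lower. LIG1, the ligase that joins Okazaki fragments, had 111 and 108 CPM with Cas9 and 93.4 and 90.7 with dCas9 (log2 0.25, SE 0.099), and UBE2C of the anaphase-promoting complex a log2 fold change of 0.15 (SE 0.082).

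Histone genes carried the most footprints per codon of all genes. The 10 highest were H3C14, H3C15, H4C14, H4C15, H2AC18, H2AC19, H3C13, H2BC18, H2BC21 and H2BC12, and their log2 fold changes ran from -0.031 to 0.072. The counts of H3C14 (19478, 40438, 42659 and 58093) and H3C15 (19473, 40443, 42659 and 58098) were nearly the same in each library, as were those of other near-identical copies, so reads were counted for more than 1 gene and the members are not independent. Of 67 replication-dependent histone genes tested 7 (10.4%) were higher and 5 (7.46%) lower without overlap, beside 15.8% and 15.9% of all genes. H4C6 was lower, at 11.0 and 9.64 CPM with Cas9 and 19.5 and 14.7 with dCas9 (log2 -0.74, SE 0.25). H4C16 had a log2 fold change of 0.26 (SE 0.088), and neither gene passed the threshold. H1-5, a linker histone, had 132 and 110 CPM with Cas9 and 87.6 and 101 with dCas9 (log2 0.34, SE 0.11). It missed the threshold with all 4 libraries and passed it without the Cas9 library f (log2 0.48, adjusted p = 0.0119), in a fit with a lone Cas9 library that takes its spread from dCas9 and calls 42 genes.

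Lists for protein quality control and metabolism held no gene that passed the threshold. Over all genes tested 15.8% were higher and 15.9% lower without overlap, and the shares of these lists stand beside those. Among 33 proteasome genes 7 (21.2%) were higher and 5 (15.2%) lower (median 0.00010), with PSMB6 of the core particle at 300 and 288 CPM against 268 and 265 (log2 0.14, SE 0.077). Among 24 genes of the unfolded protein response 6 (25%) were higher and 2 (8.33%) lower (median 0.019), with XBP1, the transcription factor activated by splicing, at 18.8 and 22.3 CPM against 16.6 and 14.7 (log2 0.41, SE 0.21). All but 1 of the 8 subunits of the CCT chaperonin, which folds actin and tubulin, lay below 0, from -0.078 to 0.043, and 2 (25%) did so without overlap, beside 5419 of the 10952 genes tested below 0 and 15.9% without overlap. The median of the 8 was -0.026, and it was 0.014 without the Cas9 library f. Heat shock chaperones (25 tested, median 0.014), glycolysis enzymes (17, median 0.012), cholesterol synthesis (22, median -0.037), splicing factors of the SR and hnRNP families (31, median 0.013) and polyamine and iron genes (15, median -0.035) stayed as close to 0. Of 18 selenoprotein genes 1 (5.56%) was higher and 5 (27.8%) lower, while SELENOP, the plasma selenium carrier, had 72.1 and 68.0 CPM against 52.9 and 57.4 (log2 0.34, SE 0.12). Immediate early genes (14 tested) had a median of 0.014. Interferon-induced genes had 24 of 44 members deep enough to test, with 6 (25%) higher, 6 (25%) lower and a median of -0.039. A guide RNA can itself evoke interferon, and by the study's methods the 72 h guide was transcribed in vitro. Both groups received the guide, so this comparison cannot show a response to the guide alone. STAT2, which carries the interferon signal, had 8.47 and 9.98 CPM against 15.9 and 13.3 (log2 -0.63, SE 0.27), and IFIT1, an interferon-induced RNA binder, had 8.47 and 4.40 CPM against 4.01 and 3.63 on 26 to 32 counts a library (log2 0.68, SE 0.42). Neither passed the threshold.

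Footprint changes were then set against mRNA changes at 72 h in a fit of 8 libraries that tests their difference. Of 10899 genes, the footprint change lay above the mRNA change for 75 (0.688%) and below it for 2 (0.0184%). For each of the 75 the mRNA fell past the threshold, with a median mRNA log2 fold change of -0.81 and a median footprint log2 fold change of 0.037. Footprint values here are from the fit of the 4 footprint libraries alone, and in the fit of 8 libraries no footprint change passed the threshold. Over all 10899 genes the median absolute footprint log2 fold change was 0.11. Of the 75, footprints lay within 0.2 log2 of 0 for 68 and rose past the threshold for 2, MT-CO2 and MT-ATP6. The count fell to between 1 and 3 when any 1 of the footprint libraries was left out. These values reuse the 4 footprint libraries of the first comparison. The mRNA calls come from the same fit that picked the 75, so the fall of their mRNA is not a separate result. RPS16, a small subunit protein, had the smallest adjusted p. Its footprints were at 754 and 801 CPM with Cas9 and 814 and 841 with dCas9 (log2 -0.089, SE 0.065), while its mRNA was at 79.6 and 78.0 CPM with Cas9 and 240 and 373 with dCas9, a log2 fold change of -1.96 (adjusted p = 4.53e-06). The difference was 1.87 (SE 0.20, adjusted p = 0.000863). The mRNA of RPS16 was not typical of ribosomal protein genes. Of 32 small subunit genes with mRNA tested 8 rose past the threshold and 3 fell, with a median mRNA log2 fold change of 0.21. Of 47 large subunit genes 7 rose and 4 fell, with a median of 0.17. At 36 h RPS16 mRNA was at 1086 to 1267 CPM over the libraries of both nucleases, so it was low in both groups at 72 h. The annotation differs between the times, and the source of the low RPS16 mRNA at 72 h was not tested. For the dynein cofactor NUDC the footprint and mRNA changes differed by 1.2 (adjusted p = 0.0112). NUDC footprints were at 324 and 344 against 322 and 321 CPM and its mRNA at 62.1 and 82.1 against 149 and 170. ARHGDIA, a dissociation inhibitor of small GTPases, differed by 0.80 (adjusted p = 0.0216), HNRNPA0, an RNA-binding protein, by 0.93 (adjusted p = 0.0202) and APEX1, the abasic site endonuclease of base excision repair, by 0.87 (adjusted p = 0.0271). EIF3C and EIF3CL (0.94 each), as well as U2AF1 and its copy ENSG00000275895 (1.14 each), are near-identical copies that share reads and count once.

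For the mitochondrially encoded genes the difference was 1.28 for MT-CO2 (SE 0.17, adjusted p = 0.00861) and 1.25 for MT-ATP6 (adjusted p = 0.0403), and it was 1.02 for MT-ND4L (adjusted p = 0.107), 0.66 for MT-ATP8 (adjusted p = 0.48) and 0.57 for MT-ND5 (adjusted p = 0.278). FMN2 differed by 1.36 (adjusted p = 0.0403). The 2 genes on the other side were SLC25A15, the ornithine carrier of mitochondria, with 6 and 22 footprints for Cas9 and 57 and 66 for dCas9 (difference -1.56, adjusted p = 0.0751), and NSMCE4A of the SMC5/6 complex, with footprints at 55.5 and 61.0 CPM against 72.3 and 74.5 (difference -0.74, adjusted p = 0.0948). Over all genes the mRNA fell for 571 and rose for 47. The mRNA change also followed the GC content of the coding sequence (rank correlation -0.41 across genes, which are not independent replicates), while the footprint change followed it little (0.078). The part of GC content in these differences was not tested beyond the fits with a GC trend removed from the footprints.

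**Figure D5:**
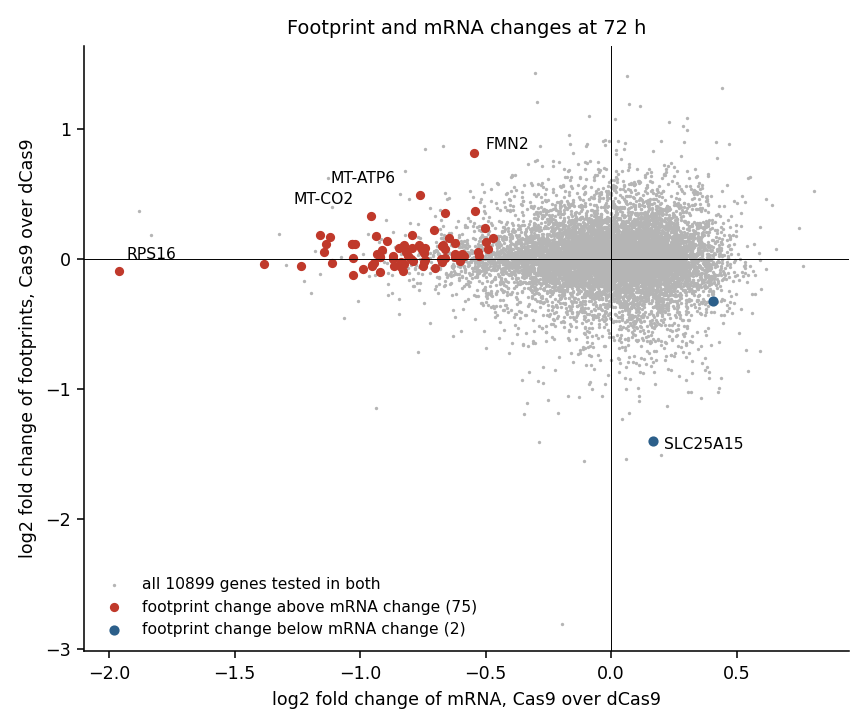
log2 fold change of footprints against that of mRNA at 72 h (Cas9 over dCas9) for the 10899 genes tested in both. Red points are the 75 genes whose footprint change lies above the mRNA change and blue points the 2 below it. The red points spread along the mRNA axis, down to -1.96 for RPS16, while most stay within 0.2 of 0 in footprints.

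The footprint change at 72 h was also compared with that at 36 h, in a fit of the 8 footprint libraries of both times. Of 8987 genes tested none passed the threshold (0%), and 289 had an unadjusted p under 0.05. DESeq2 made no call either, with 185 genes at an unadjusted p under 0.05. MT-ATP8 differed between the times by 1.32 (SE 0.53), MT-ATP6 by 0.70 (SE 0.36) and MT-ND5 by 0.60 (SE 0.33), all with an adjusted p of 0.999. RPS27A differed by 0.071 (SE 0.16). H1-5 had the smallest unadjusted p (0.000699), at -0.80 at 36 h and 0.34 at 72 h. The 36 h libraries held 689641 to 4868650 footprints and so gave wider errors. The time points also differ in the guide (synthetic at 36 h), the annotation and, by the methods though not by the submitters' notes, the aligner, and these cannot be told apart from time.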

How the data were processed

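Whole-number counts per transcript were deposited by the authors as 1 table a library, with the coding length in codons. Per the study's methods, 72 h reads were aligned with tophat to GRCh38.p7 (GENCODE 25), 36 h reads with hisat2 to GENCODE 22, and reads per transcript tabulated with fp-count; the submitters' processing notes name HISAT2 2.1.0 for each sample. The counts are not normalized, and how counting treated strand and multiple mapping is not given in the sources used here. The nuclease of the Cas9 footprint libraries at 72 h was taken from the treatment label, since their titles write rcas9.

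For each gene the transcript with the highest summed footprint count was kept, and genes that averaged 20 counts or more were fitted with edgeR 4.0.16 in R 4.3.3 (TMM scaling, quasi-likelihood test, Benjamini-Hochberg adjustment over all genes, threshold 0.1), with the 4 footprint libraries alone. CPM of single genes use TMM-scaled totals, except those of JAK2 and at 36 h, and those of shares, which use plain totals. The difference from mRNA and from 36 h was an interaction term over 8 libraries each. Scripts were tested on simulated data. The members, gene lists and alternatives were chosen with earlier results of these data known. Named genes were a fixed set (JAK2, ubiquitin, ribosomal, stress and p53 genes) and all genes past the threshold. To these were added the smallest p-values without overlap at 10 CPM or more and up to 3 genes of each list. The genes of a list were those with its smallest unadjusted p in this comparison, so they are not typical members. The 10 genes with most footprints per codon and the mitochondrially encoded genes completed the set. Some genes that this rule names are not reported here. Replicates are separate pooled plates by the study's methods; labels give only letters, so p-values measure the spread between these samples. Counting error alone limits genes with few footprints. Coordinates and sequences are of GRCh38 with GENCODE 44. The alternatives were DESeq2 1.42.0, its median-ratio size factors in edgeR, other count minimums, all transcripts, footprints and mRNA fitted together, a replicate block, removal of a GC trend, thinning to the smallest total and leaving out each library.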

Additional observations from a re-analysis of the deposited data

How the results depend on the processing

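The number of genes past the threshold, 4 with all libraries, was 3 with DESeq2 (MT-ATP6, MT-ND5 and MT-CO2), 4 with median-ratio size factors, filterByExpr, every transcript or thinned libraries, and 6 with no count minimum or a mean count of at least 100. It was 0 when footprint and mRNA libraries were fitted together, with 396 genes at an unadjusted p under 0.05, and 7 with the GC trend removed. With the replicate block it was 7 and with both 7, and the genes added under the block were MT-ND4L, MT-ATP8 and ZNF460. The study, which also used DESeq2 at a false discovery rate of 0.1, reported no significant footprint change at 72 h. Its methods do not describe a count minimum, and the source of the difference from the 3 DESeq2 calls here was not tested. The letters e and f do not pair the samples by any label, and the differences between e and f of Cas9 and dCas9 had a correlation of 0.012 across genes. Leaving out 1 library gave 1 to 42 genes, with 42 without Cas9 library f, 15 without Cas9 e, 3 without dCas9 e and 1 (SAMD10) without dCas9 f. Genes whose footprint change differed from the mRNA change numbered 77, against 220 with DESeq2, 167 with median-ratio size factors, 112 with no count minimum, 79 with the replicate block and 1 to 3 without 1 library. The cause of these shifts was not tested. The comparison with 36 h gave 0 under each of 7 alternatives. Recomputed list medians stayed within the SD of the single pairs in 260 cases and moved further in 28, mostly without Cas9 f (11) or dCas9 e (8), and no named gene past the threshold turned its direction.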
